A study of Homo sapiens with 2 samples.

Results

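Peaks of DEK, an abundant nuclear protein that binds chromatin, were examined on human chromosome 19 outside its centromere in 786-O cells, an established renal carcinoma line. Members were chosen by position (hg38, peaks ending at or before 24179012 or starting at or after 27681071) and by having passed the authors' peak threshold. They numbered 750 of 19015 peaks on chromosomes 1 to 22 and X in replicate 1 and 1004 of 24457 in replicate 2. Where a peak of one library overlapped a peak of the other by 1 bp or more, they were joined, which gave 518 shared regions here of 12590 in all. The study as analysed here was 1 group of 2 ChIP-seq libraries, labelled as a negative control with a WT genotype and a DEK antibody and deposited under a name that begins with Cas9. Negative control may mean the cells or the precipitation, which the labels leave unstated, and the peaks are called DEK peaks on the reading that control cells were precipitated with the DEK antibody. No input, other antibody or DEK-edited sample was analysed here, and no label gives the replicates as separate cultures, so the spread between them may be technical. With 1 group no difference between conditions could be tested and no p-value is given.

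DEK associates with DNA and histones and is known as a chromatin architectural factor and histone chaperone. Chromosome 19 carries the highest density of protein-coding genes of the human chromosomes and most of the large clusters of KRAB zinc finger genes, whose products mostly repress transposable elements. A ChIP-seq peak is a stretch where precipitated fragments pile up above the local background. The fold enrichment given for each peak is the authors' value at its summit, the base with the highest pileup.

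At gene starts, the summits of shared regions lay upstream, and the promoters under them often held the pentamer CCAAT, the CCAAT box bound by the trimeric factor NF-Y among others. Promoters of 7 genes are shown: those of the 15 genes with the highest-ranked region at an end whose DEK summit fell within the 250 bases upstream of the start, except XAB2, which shares its stretch with PET100. BABAM1 encodes a subunit of the BRCA1-A complex that acts at DNA breaks. PET100 encodes a factor for assembly of mitochondrial complex IV. FEM1A encodes a ubiquitin ligase adaptor and TYK2 a cytokine receptor kinase, and ZNF587, ZNF564 and ZNF77 encode zinc finger proteins. Each line gives the 250 bases upstream of the start listed by RefSeq (GRCh38.p14), 5′ to 3′ on the gene's strand, with CCAAT or its reverse complement ATTGG in capitals.

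BABAM1: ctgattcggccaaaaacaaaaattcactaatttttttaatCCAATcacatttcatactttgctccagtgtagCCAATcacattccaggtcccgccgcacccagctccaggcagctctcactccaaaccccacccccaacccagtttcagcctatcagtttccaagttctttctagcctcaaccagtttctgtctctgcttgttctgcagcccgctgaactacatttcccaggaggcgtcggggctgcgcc
PET100: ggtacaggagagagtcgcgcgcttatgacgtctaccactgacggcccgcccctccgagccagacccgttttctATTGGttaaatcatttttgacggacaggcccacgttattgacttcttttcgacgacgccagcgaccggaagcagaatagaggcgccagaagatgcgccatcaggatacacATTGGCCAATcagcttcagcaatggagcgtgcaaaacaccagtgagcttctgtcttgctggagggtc
FEM1A: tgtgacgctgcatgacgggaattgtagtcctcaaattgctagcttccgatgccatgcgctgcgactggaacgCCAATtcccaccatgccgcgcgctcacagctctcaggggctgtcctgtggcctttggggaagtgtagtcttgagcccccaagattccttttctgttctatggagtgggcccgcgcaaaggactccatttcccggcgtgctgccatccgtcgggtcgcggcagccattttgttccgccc
TYK2: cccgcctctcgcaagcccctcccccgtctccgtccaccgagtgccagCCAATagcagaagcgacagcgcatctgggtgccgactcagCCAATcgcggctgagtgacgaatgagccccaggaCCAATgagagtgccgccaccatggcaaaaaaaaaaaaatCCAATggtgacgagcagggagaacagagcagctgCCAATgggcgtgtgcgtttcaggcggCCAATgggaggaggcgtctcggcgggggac
ZNF587: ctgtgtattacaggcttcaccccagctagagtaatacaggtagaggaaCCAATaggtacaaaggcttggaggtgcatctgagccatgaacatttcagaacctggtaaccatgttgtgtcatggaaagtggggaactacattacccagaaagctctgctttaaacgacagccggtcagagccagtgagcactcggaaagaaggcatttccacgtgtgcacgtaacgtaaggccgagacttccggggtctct
ZNF564: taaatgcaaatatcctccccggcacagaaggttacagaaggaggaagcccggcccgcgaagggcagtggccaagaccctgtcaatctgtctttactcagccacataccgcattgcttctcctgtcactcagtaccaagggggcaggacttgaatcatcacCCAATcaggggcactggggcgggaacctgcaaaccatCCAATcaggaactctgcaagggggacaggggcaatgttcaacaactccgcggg
ZNF77: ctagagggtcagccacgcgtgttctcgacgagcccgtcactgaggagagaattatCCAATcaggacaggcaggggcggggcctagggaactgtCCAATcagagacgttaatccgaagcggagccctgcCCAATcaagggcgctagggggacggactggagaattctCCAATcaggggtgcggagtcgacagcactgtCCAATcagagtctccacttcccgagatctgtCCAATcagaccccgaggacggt

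The stretches of BABAM1 (chr19:17267193-17267442), PET100 (chr19:7629543-7629792), FEM1A (chr19:4791484-4791733) and ZNF587 (chr19:57849609-57849858) are on the plus strand. Those of TYK2 (chr19:10380573-10380822), ZNF564 (chr19:12551483-12551732) and ZNF77 (chr19:2944972-2945221) are on the minus strand. TYK2 and ZNF77 each held 6 matches, PET100 held 3, BABAM1 and ZNF564 held 2, and FEM1A and ZNF587 held 1. The DEK summit lay 2 bp from the nearest match in ZNF564, 4 bp in ZNF77, 8 bp in TYK2, 22 bp in PET100, 34 bp in BABAM1, 45 bp in FEM1A and 74 bp in ZNF587.

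Of the 1185 chromosome 19 genes with a listed start, 78 had the summit of a shared region within 500 bp upstream. These 78 promoters held 68 distinct summits, since neighbouring divergent genes share one, and so they are not independent. CCAAT on either strand stood in the 250 upstream bases of 63 of them (80.8%, 95% Wilson interval 70.7 to 88.0) and in 36.0% (33.3 to 38.9) of the 1107 promoters without such a summit. Over all 15812 promoters of the table the share was 34.4%. On the other chromosomes the shares were 69.1% with a summit and 32.9% without. The intervals of chromosome 19 promoters with and without a summit did not overlap. The motif and the 500 bp distance were chosen after output was seen, so these shares are descriptions and not a test.

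The share of promoters with a summit differed by the number of matches. On chromosome 19 it was 2.07% of 723 promoters with no match (1.26 to 3.39), 8.46% of 272 with 1 match (5.70 to 12.4), 9.40% of 117 with 2 (5.33 to 16.1) and 39.7% of 73 with 3 or more (29.3 to 51.2). On the other chromosomes the same shares were 1.50%, 3.41%, 6.49% and 26.8% (23.1 to 30.8). Among the 78 promoters the summit itself fell in the 250 bases in 51, of which 45 held a match. The nearest match lay at a median of 34 bp from the summit in these 45 (quartiles 11 and 61 bp), and within 25 bp in 17 of them. On the other chromosomes the median was 28 bp over 272 promoters. A longer run of matches places one nearer to any base, and the distances are descriptions only.

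**Figure D1:**
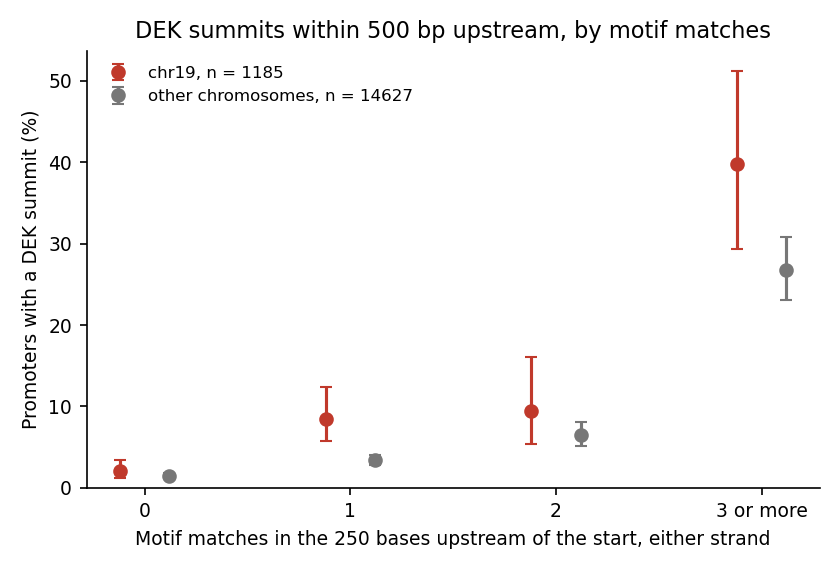
Percentage of promoters with the summit of a shared DEK region within 500 bp upstream of the start (y axis), by the number of CCAAT or ATTGG matches in the 250 upstream bases (x axis), for chromosome 19 (red) and the other chromosomes (grey). Points are shares and bars 95% Wilson intervals; the points lie highest at 3 or more matches, 39.7% on chromosome 19 and 26.8% elsewhere.

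Other sequence features of the same promoters were compared. GGGCGG on either strand, the core of the GC box of Sp/KLF factors, stood in 87.2% of chromosome 19 promoters with a summit (78.0 to 92.9) and 62.2% of those without, with 56.0% over all promoters. On the other chromosomes it stood in 64.0% and 55.1%. CGGAAG, an ETS-type core, stood in 41.0% and 23.5% of chromosome 19 promoters with and without a summit, and in 21.6% of all promoters. TATAAA stood in 2.56% and 6.96%, and in 9.25% of all. The G and C content of the upstream bases was similar, with medians of 61.2% in promoters with a summit and 63.2% without, and the median number of CpG was 18.5 with a summit and 16 without. All 4 motifs were searched on both strands, matches of GGGCGG and CGGAAG can share letters, and a match is a run of letters and not a bound factor.

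The zinc finger genes, named ZNF genes below and counted with the ZSCAN, ZKSCAN, ZIM, ZFP and PEG3 genes, were also taken alone. Of their 227 promoters with a listed start, 16 had a summit within 500 bp upstream, and 15 of the 16 held CCAAT (93.8%, 71.7 to 98.9). Of the 211 without a summit, 46.4% did (39.8 to 53.2). The share of ZNF promoters with a summit was also taken by the number of matches. It was 0.877% of 114 with no match (0.155 to 4.80) and 15.5% of 71 with 1 (8.88 to 25.7). With 2 matches it was 6.06% of 33 (1.68 to 19.6), and with 3 or more 22.2% of 9 (6.32 to 54.7). The intervals with 1 or more matches overlapped, so no order among them can be read.

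Summits sat on the upstream side of starts. From 500 bp upstream to the start, there were 6.58 summits per 100 chromosome 19 genes, against 0.591 in the first 500 bp downstream. A summit shared by neighbouring genes counted once for each gene. The 78 chromosome 19 promoters with an upstream summit held 68 distinct summits. On the other chromosomes the values were 3.21 and 0.451. In steps of 100 bp the highest value on chromosome 19 was 2.45 per 100 genes, from 200 to 100 bp upstream, and that step was also the highest elsewhere, at 1.47. ZNF genes had 7.05 per 100 on the upstream side.

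**Figure D2:**
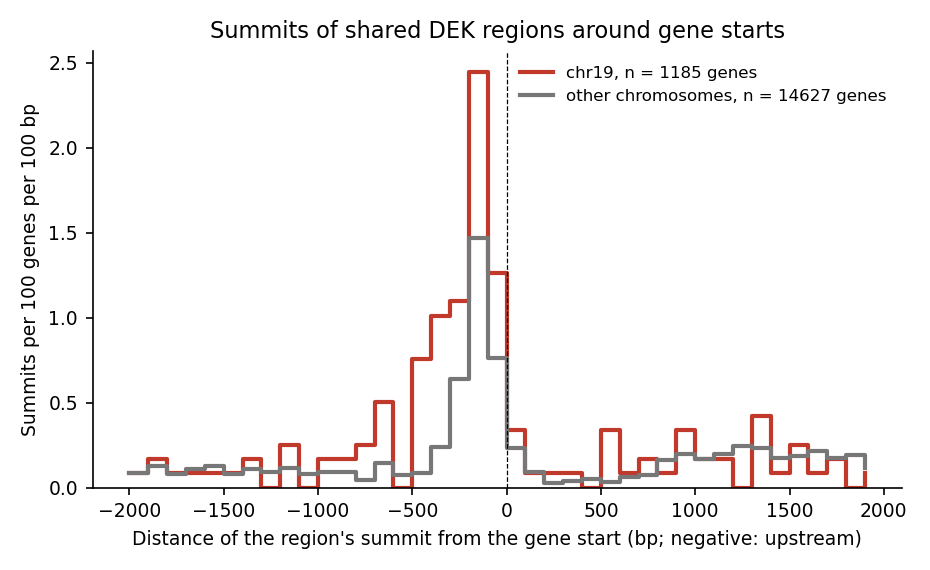
Number of shared-region summits per 100 genes in 100 bp steps (y axis) by distance from the listed start (x axis, bp, negative values upstream), for 1185 chromosome 19 genes (red) and 14627 genes of the other chromosomes (grey). Both lines peak from 200 to 100 bp upstream, at 2.45 and 1.47, and are low just after the start. A summit shared by neighbouring genes counts once for each gene.

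A shared region touched the 1 kb around the start of 112 of 1185 chromosome 19 genes (9.45%, 7.91 to 11.3), where the share over all genes was 5.67%. It touched the 1 kb around the far end of 40 genes (3.38%, 2.49 to 4.56), where the share over all genes was 2.75%. On the other chromosomes the shares were 5.36% at starts and 2.70% at far ends. Of the 227 ZNF genes, 23 had a region at the start (10.1%, 6.85 to 14.7) and 1 at the far end. Of the 958 other genes, 9.29% had one at the start and 4.07% at the far end. Listed starts lay within 10 bp of the outer annotated end in 1013 of the 1185 genes, so counts at starts and counts at annotated ends below are not of the same positions.

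The strongest region of the chromosome lay inside the gene ARHGEF18, at 7450630 to 7451102. Its fold enrichment was 9.44 in replicate 1 and 12.9 in replicate 2, and it was the strongest in both libraries. Next came the BABAM1 region, at 7.95 in replicate 1 and 7.36 in replicate 2. The region upstream of MPND, a gene for a metalloprotease domain protein, had 7.07 and 8.10 in replicates 1 and 2. A region inside KANK2, a gene for an adaptor of focal adhesions and the cytoskeleton, at 11168411 to 11169140, had 7.90 and 6.21. All 4 exceeded 6-fold in both libraries, whereas the median of the 518 regions was 4.18.

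Here the 10 strongest regions are those with the highest mean percentile of fold over both libraries. The other 6 of them lay between 5.73 and 7.19 in either library. One at 18328421 to 18329122 was 5638 bp from LSM4, a gene for an mRNA splicing and decay protein, with 6.63 and 6.52. One inside VRK3, a pseudokinase gene, at 50003846 to 50004742, had 6.15 and 6.46. One inside PDE4C, a cyclic AMP phosphodiesterase gene, at 18224357 to 18224758, had 6.11 and 6.28. At gene starts were those of HDGFL2, a reader of methylated histone H3 (6.21 and 6.15), and MPV17L2, a gene for a mitochondrial ribosome assembly factor (6.12 and 6.18). The region at 7629564 to 7629846 lay between PET100 and XAB2, a transcription-coupled repair and splicing gene, and next to an annotated end of the secretion gene STXBP2, with 5.73 and 7.19. Of the 10 regions, 9 lay on the p arm and 1 on the q arm, where the p arm held 264 of all 518 shared regions. This split depends on the ranking by percentile. By the mean fold of both libraries, a q-arm region outside the 10 reached 6.47, against 6.31 at VRK3. Of the 59 regions at 5-fold or more in both libraries, 32 lay on the p arm and 27 on the q arm.

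Among the 15 genes with the highest-ranked region at an end were also FEM1A (5.76 in replicate 1 and 6.87 in replicate 2), and DNM2, the dynamin gene of endocytosis (5.90 and 5.49). KHSRP, an mRNA decay factor gene, and the mitochondrial carrier gene SLC25A41 shared 1 region (6.82 and 5.59). TYK2 had 5.53 and 6.45. The 3 zinc finger genes among the 15 were ZNF587 (5.81 and 5.70), ZNF564 (5.48 and 6.10) and ZNF77 (5.44 and 5.89), with summits 126, 86 and 151 bp upstream of their starts.

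Signal at chromosome 19 peaks was of ordinary strength for these libraries. The median fold was 4.05 in replicate 1 and 3.88 in replicate 2, against 3.98 and 3.88 on the other chromosomes. A fold of at least 5 was reached by 15.3% of the members in replicate 1, where the share over all peaks was 14.3%, and by 12.5% in replicate 2, where it was 12.9%. The weakest members had a −log10 q of 1.39 and 1.42. The peaks covered 252.907 kb in replicate 1 and 334.265 kb in replicate 2. Solving the authors' fold and p for the pileup gave a median of 19 fragments at the summit in each library, so 1 peak's value carries a large counting error. Sequencing depth is not given in the files.

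At the bounds of the rule, the last p-arm peaks inside it were at 24087011 to 24087242 in replicate 1 (5.12-fold) and 24140270 to 24140472 in replicate 2 (4.21-fold), and the first peaks left out were at 24941391 in replicate 1 (9.30-fold) and 24929952 in replicate 2 (5.03-fold). On the q side, the first peaks inside had 4.22 in replicate 1 and 3.64 in replicate 2, and the last peaks left out had 6.04 and 4.85.

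Sharing between the libraries was close to that of the genome as a whole. In replicate 1, 530 of 750 peaks (70.7%, 67.3 to 73.8) overlapped a replicate 2 peak, where the share over all peaks was 67.8%. In replicate 2, 529 of 1004 (52.7%, 49.6 to 55.8) overlapped a replicate 1 peak, where it was 52.2%. Grouped by quartiles of −log10 q over all peaks, sharing on chromosome 19 was 54.2%, 56.6%, 78.2% and 91.5% from weakest to strongest in replicate 1. In replicate 2 it was 31.3%, 37.3%, 55.3% and 86.6%. On the other chromosomes, from weakest to strongest, it was 46.3%, 58.0%, 74.1% and 92.4% in replicate 1. There it was 27.1%, 41.3%, 56.4% and 84.5% in replicate 2. Shared members were slightly stronger, with median folds of 4.11 (replicate 1) and 4.06 (replicate 2), than the 220 and 475 unshared members, with 3.88 and 3.69.

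In the 518 shared regions the mean fold had a median of 4.18 and ranged from 2.51 to 11.2, and the median on the other chromosomes was 4.11. The folds of the libraries had a Spearman coefficient of 0.63 across regions, the pileups 0.80 and the local backgrounds 0.97. These points share libraries and local depth and are not replicates, so the coefficients are descriptions. The median absolute log2 ratio between libraries was 0.17. Summits lay a median of 75.5 bp apart, and within 100 bp in 325 regions (62.7%). Both libraries reached 5-fold in 59 regions.

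**Figure D3:**
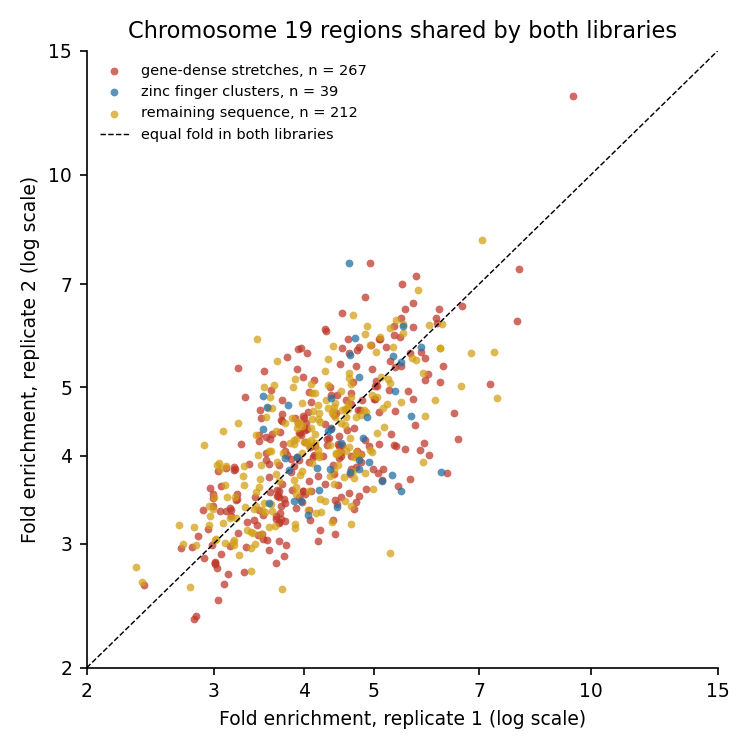
Fold enrichment in replicate 1 (x axis) and replicate 2 (y axis), both on log scales, of the 518 shared chromosome 19 regions, colored by stretch (267 gene-dense, 39 in zinc finger clusters, 212 in remaining sequence), with a dashed line at equal fold. The points of the 3 classes overlap around 4-fold, and the ARHGEF18 region stands alone at 9.44 and 12.9.

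Per length, chromosome 19 was among the densest chromosomes. It had 9.41 shared regions per Mb over 55.0 Mb, against 4.13 per Mb on the other chromosomes. Its peaks numbered 13.6 per Mb in replicate 1 and 18.2 in replicate 2, against 6.26 and 8.03 elsewhere. The ratio was 2.28 in shared regions, and 2.22 ± 0.0672 (SD, n = 2) over the libraries' peaks. Among 23 chromosomes it ranked 2 in regions per Mb, after chromosome 17 with 10.1. The centromere was left out on chromosome 19 only, where the block held 91 further shared regions. The other chromosomes kept theirs, so the rank and the ratios compare unlike sets.

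Per gene, the order was the opposite. With 1410 protein-coding genes, 25.6 per Mb against 6.35 elsewhere, chromosome 19 had 36.7 shared regions per 100 protein-coding genes, against 65.1 on the other chromosomes, a ratio of 0.565. It ranked 1 in genes per Mb and 21 of 23 in regions per gene. The other gene-rich chromosomes lay on both sides of it per Mb: chromosome 19 over chromosome 17 was 0.933, over chromosome 16 it was 1.47 and over chromosome 22 it was 1.42. In these values too the centromere was left out on chromosome 19 only.

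The p arm held more regions per Mb than the q arm. It had 264 shared regions, 10.9 per Mb, and the q arm had 254, 8.22 per Mb. The ratio was 1.33 in shared regions, 1.37 in replicate 1 and 1.29 in replicate 2. Genes were about equally dense on both, at 25.2 per Mb on the p arm and 26.0 on the q arm, and 84 ZNF genes lay on the p arm against 180 on the q arm. Median folds of the shared regions were 4.20 on the p arm and 4.13 on the q arm. The local background of the peaks moved with the arms, with medians of 4.15 in replicate 1 and 4.32 in replicate 2 on the p arm, against 3.52 and 3.90 on the q arm. Its part in the difference was not tested.

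Gene-dense stretches carried several times more regions than the zinc finger clusters. Gene-dense stretches were 1 Mb windows with at least 30 protein-coding genes, less the clusters. Zinc finger clusters were runs of at least 5 ZNF genes, at most 250 kb apart, with at most 1 other gene between neighbours. Gene-dense stretches had 267 shared regions over 19.1 Mb, 13.9 per Mb, and zinc finger clusters had 39 over 11.3 Mb, 3.44 per Mb. The remaining sequence had 212, 8.64 per Mb. The ratio of gene-dense stretches to clusters was 4.06 in shared regions, and 3.36 ± 0.165 (SD, n = 2) over the libraries' peaks. Per Mb it was 4.26 within the p arm and 3.96 within the q arm, and per gene 1.71 within the p arm and 3.03 within the q arm.

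Gene number differed by less than region number between these classes. Gene-dense stretches held 37.2 genes per Mb and the clusters 22.6, and the ratio of regions per gene was 2.46. A single cluster moved the contrast in either direction: it was 6.54 without the cluster from ZNF627 to ZNF791 and 3.03 without that from ZNF737 to ZNF91. Local background was lower in the clusters too, with peak medians of 3.99 in replicate 1 and 4.24 in replicate 2 in gene-dense stretches, against 2.78 and 3.08 in the clusters. Whether this, or reads that map to more than 1 zinc finger gene, bears on the contrast was not tested. The median fold, as the mean of both libraries, was 4.14 in the shared regions of gene-dense stretches and 4.36 in those of the clusters. Fold is relative to that local background.

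**Figure D4:**
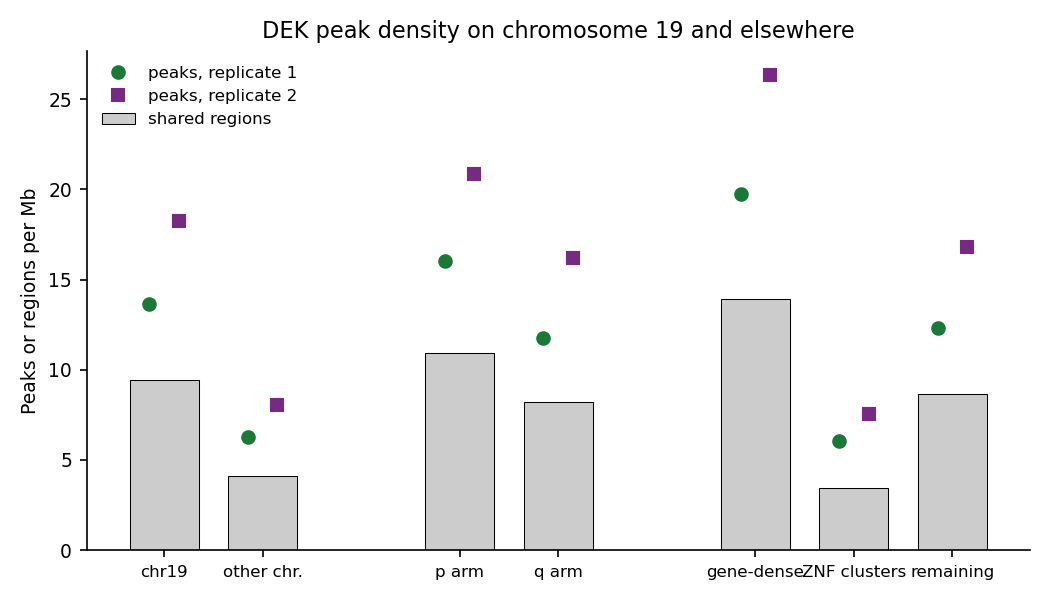
Shared regions per Mb (grey bars) and peaks per Mb of replicate 1 (green circles) and replicate 2 (purple squares) for chromosome 19 and the other chromosomes, the p and q arms, and the gene-dense stretches, zinc finger (ZNF) clusters and remaining sequence of chromosome 19. Gene-dense stretches stand highest with 13.9 shared regions per Mb and the clusters lowest with 3.44.

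The 16 zinc finger clusters, 5 on the p arm and 11 on the q arm, did not form an even class. The median cluster had 2.83 shared regions per Mb, and 4 clusters had none. The largest, from ZNF737 to ZNF91 at 20530276 to 23395471, held 25 ZNF genes over 2865.2 kb with 2 peaks in replicate 1, 3 in replicate 2 and no shared region. The cluster from ZNF627 to ZNF791 at 11597483 to 12633834 held 24 ZNF genes over 1036.35 kb with 24 and 26 peaks and 17 shared regions, 16.4 per Mb. Together with 5 regions in the cluster of 43 ZNF genes from ZIM3 to ZNF837 and 6 in that from ZNF577 to ZNF816, it held most of the regions in clusters. The cluster with the highest density, from ZNF584 to ZNF446 with 22.7 per Mb, rested on 2 regions.

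Regions in the ZNF627 to ZNF791 cluster lay at or near many of its genes. Folds in replicates 1 and 2 were 4.64 and 5.56 at ZNF823, 4.63 and 7.49 inside ZNF442, and 5.45 and 5.44 inside ZNF440. A single region served both ZNF490 and ZNF791, at 5.30 and 3.76. These genes were picked from the cluster after their values were seen.

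Over 55 windows of 1 Mb, the number of shared regions had a median of 8 and ranged from 0 to 29. Windows with at least 30 genes, fewer than 50% of them ZNF genes, had a median of 11.5 regions (20 windows, 6 to 28). Windows in which at least 50% of the genes were ZNF genes had a median of 2 (14 windows, 0 to 9), and the other 21 windows had 9. Gene and region numbers had a Spearman coefficient of 0.57 over the 55 windows and 0.37 over the 41 without a ZNF majority, against 0.60 over 2984 windows of the other chromosomes. Peak numbers of replicate 1 and replicate 2 had a coefficient of 0.94. Neighbouring windows and the 2 libraries share depth and sequence, and the coefficients are descriptions.

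Windows matched for gene number held more or fewer regions on chromosome 19 depending on the class. With at least 30 genes, the median was 11 in 22 chromosome 19 windows and 13 in 66 windows elsewhere. With 20 to 29 genes it was 8 in 19 windows and 9 in 112 elsewhere, and with 10 to 19 genes it was 3 in 7 windows and 6 in 419 elsewhere. Without windows of a ZNF majority, the medians were 11.5 in 20 chromosome 19 windows and 13 in 66 elsewhere with at least 30 genes. They were 11 in 13 and 9 in 112 with 20 to 29 genes, and 4 in 5 and 6 in 415 with 10 to 19.

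The densest window, 46000001 to 47000000, had 29 shared regions with 24 genes, and 36 and 45 peaks in replicates 1 and 2. It holds most of the gene ARHGAP35, which had 10 regions inside it, the most of any gene on the chromosome. The window from 38000001 had 28 regions and 30 genes, among them SIPA1L3, a Rap GTPase-activating protein gene, and ACTN4, an actin cross-linker gene, with 7 regions inside each. The windows from 2000001, 11000001 and 18000001 had 23 each. That from 2000001 holds GNG7, a G protein subunit gene with 6 regions, and that from 18000001 holds ELL, an elongation factor gene with 7. These genes are long, from 79.4 kb for ELL to 301 kb for SIPA1L3, and the counts are not adjusted for gene length.

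The 5 windows with no shared region started at 20000001, 21000001, 22000001, 29000001 and 30000001. The first 3 lay in the p-arm zinc finger belt, with 25 ZNF genes among 26. The last 2 lay near the centromere on the q arm and held 7 genes and 1 gene. Across the 5, replicate 1 had 2 peaks and replicate 2 had 5.

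**Figure D5:**
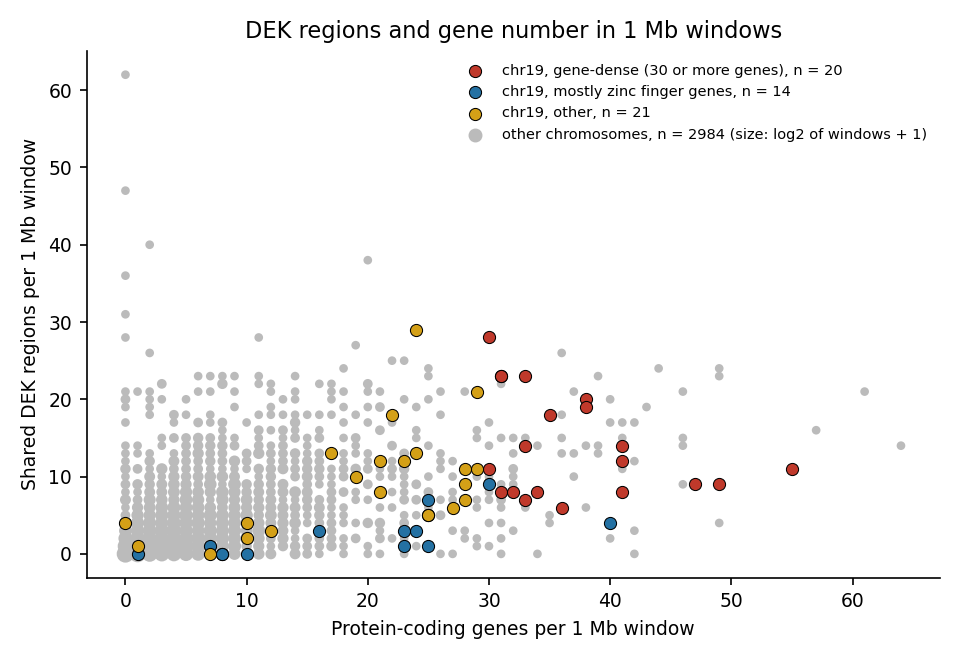
Shared DEK regions (y axis) against protein-coding genes (x axis) in 1 Mb windows, for 20 gene-dense, 14 mostly zinc finger and 21 other windows of chromosome 19 (colored) and 2984 windows of the other chromosomes (grey, dot size by the number of windows). Mostly zinc finger windows lie low, between 0 and 9 regions, at gene numbers up to 40.

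Regions lay at gene ends more often than elsewhere in the genome, as placed by their summits. Of the 518 shared regions, 124 had their summit within 1 kb of an annotated end of a protein-coding gene (23.9%, 20.5 to 27.8), where the share over all shared regions was 8.63%. The share was 8.03% on the other chromosomes, 13.3% on chromosome 16, 12.9% on chromosome 17 and 6.77% on chromosome 22. Gene ends are also more closely spaced on this chromosome, and how much of the difference that gives was not tested. The share was 23.5% on the p arm and 24.4% on the q arm. It was 27.7% in gene-dense stretches, 41.0% in zinc finger clusters (16 of 39, 27.1 to 56.6) and 34 of 212 in the remaining sequence.

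Most other regions lay inside genes. There were 266 inside a protein-coding gene (51.4%, against 52.5% elsewhere), 17 in long non-coding RNA genes (3.28%, against 8.86%), 7 in pseudogenes and 104 between genes (20.1%, against 29.7%). Exon and intron were not assigned.

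Counted by genes, 165 of 1410 protein-coding genes had any base of a shared region in the 1 kb around an end (11.7%, 10.1 to 13.5), where the share over all genes was 7.56%. The share was 7.25% on the other chromosomes, 14.4% on chromosome 16, 12.4% on chromosome 17 and 5.69% on chromosome 22. The 165 genes drew on 131 distinct regions. Of the ZNF genes, 19 of 264 had one (7.20%, 4.66 to 11.0), close to the 6.29% of 302 ZNF genes elsewhere, and of the other genes 146 of 1146 did (12.7%, 10.9 to 14.8). A further 153 genes had a region only inside them, and 813 had no peak at all in either library.

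Some regions stood in runs. Runs of at least 3 shared regions in steps of at most 10 kb numbered 18 and held 61 of the 518 regions (11.8%, against 9.06% elsewhere). The dipeptidyl peptidase gene DPP9 had 5 regions within 19.8 kb, with folds from 2.86 to 4.57 as the mean of both libraries. ELL had 5 within 20.5 kb, and DNM2 and ARHGAP35 had runs of 4. Another run of 4 began inside the ribosomal protein gene RPS9 and went on past its end. In most runs the median fold was below the chromosome's 4.18.

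Regions of at least 1 kb numbered 18 (3.47%, against 3.65% elsewhere), and the median width was 439 bp. The widest, 1451 bp, lay inside the histone demethylase gene KDM4B at 4970118 to 4971568 with 2.96 in replicate 1 and 3.19 in replicate 2. The next lay inside BBC3, the PUMA apoptosis gene, at 47228533 to 47229979 (4.29 and 4.80), and inside HOOK2, a microtubule linker gene, at 12784203 to 12785611 (4.47 and 4.13). The local background in replicate 1 was 9.83, 10.9 and 11.3 in these 3 regions, against a median of 4.17 in the chromosome's shared regions.

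Gene families of chromosome 19 differed in how many members had a region at an end. Their counts are read against the 7.56% of all genes and the 11.7% of this chromosome's genes. Wilson intervals were 17.7 to 64.5% for ribosomal protein genes, 11.4 to 39.8% for signalling and cancer genes and 9.19 to 36.3% for lipid and metabolic genes. For chromatin regulators the interval was 6.86 to 31.8%, which holds both shares. Only the interval of ribosomal protein genes lay above 11.7%. Of 13 ribosomal protein genes 5 had one and 6 had no peak, with RPL28 (3.89 in replicate 1 and 4.52 in replicate 2) and RPL18 (3.95 and 4.31) highest. In RPL13A, RPS19 and RPS9 the summit lay 5366, 12337 and 7573 bp downstream of the start. Folds were lowest at RPS9, with 2.82 in replicate 1 and 2.34 in replicate 2. Of 31 signalling and cancer genes 7 had one, led by TYK2 and DNM2, and 10 had no peak. Of 31 lipid and metabolic genes 6 had one and 13 had no peak, with the complex I gene NDUFA11 (4.89 and 6.11) and the branched-chain aminotransferase gene BCAT2 (4.47 and 3.64) highest. Of 32 chromatin regulators 5 had one, 13 had a region only inside, and 5 had no peak. Those highest were HDGFL2 and the histone chaperone gene ASF1B (4.32 and 5.03).

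Further lists had at most 1 listed member with a region at an end and were too small to place against the share over all genes. BABAM1 had one, of 22 listed replication and repair genes, of which 13 had no peak. The list leaves out XAB2 and FAAP24, which also had one. KLF16 (5.06 in replicate 1 and 5.02 in replicate 2) had one, of 21 AP-1, NF-kB and immediate-early genes and the like, of which 11 had no peak. None of 9 translation factor genes had one, and 5 had no peak.

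Several tandem gene families had none at an end. These were 39 immune receptor genes, 35 of them without a peak, 15 kallikreins, all without a peak, 12 cytochromes P450, 10 without a peak, and 20 olfactory receptor genes, 19 without a peak. The 22 pregnancy-specific glycoprotein and CEACAM genes had none at an end either, but 7 had a region inside and 12 had no peak. Such lists are small, and 0 of 39 has a Wilson upper bound of 8.97% and 0 of 15 one of 20.4%, both above the share over all genes.

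Of 130 microRNA hairpins on the chromosome, 2 had a shared region within 1 kb, MIR638 and MIR6791 (1.54%, 0.423 to 5.44), where the share over all 1558 hairpins was 2.37%. None of the 47 from MIR512-1 to MIR373 (53666679 to 53788773), a span that includes the primate-specific chromosome 19 microRNA cluster, had a peak of either library within 1 kb. Taken as fewer than 3 counts of 47, this allows a share of up to 6.38%, which is not a Wilson bound.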

How the data were processed

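The data were the authors' deposited peak lists, 1 per DEK ChIP-seq library of 786-O cells, 2 replicates of 1 group. Per the submitters' processing notes the build was GRCh38 (hg38) and the tools, listed without roles, included MACS2 2.2.7.1, Bowtie2 2.2.5 and cutadapt 1.18. For peak calling, the sources used here name no control library. The deposited columns used were fold enrichment (a linear ratio at the summit), −log10 p, −log10 q and the summit offset; the deposited score follows −log10 q and was not used further. All are the authors' own values per peak. Whole-number pileups and local backgrounds were solved from the deposited fold and p, within a relative tolerance of 5e-05, for 99.99% of peaks.

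Peaks on chromosomes 1 to 22 and X overlapping by at least 1 bp between libraries were joined, and a region took its strongest peak per library, with the midpoint of these peaks' summits. Gene positions, starts and promoters came from RefSeq tables (GRCh38.p14), and 41 protein-coding genes placed on alternate scaffolds of chromosome 19 were left out. A chromosome's length ran from its first to its last annotated gene, with the centromere removed on chromosome 19 only. Shares have 95% Wilson intervals, which cover counting error only. Python 3.11.15, pandas 2.3.3, numpy 2.4.6 and scipy 1.17.1 were used, and the overlap code was tested on simulated peaks. Members and gene lists were chosen with earlier results of these data known. The gene-end rule by any base of a region, the motifs, the 500 bp upstream distance, the runs of regions, the microRNA span and the olfactory list were chosen after output was seen. Named were the 10 regions and 15 genes at gene ends with the highest mean percentile of fold, the 5 densest and the empty windows, the 3 widest regions, and the 2 highest genes of each list.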

Additional observations from a re-analysis of the deposited data

Results flagged for a closer look

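Outside the positions examined, the centromeric block of chromosome 19 held 110 peaks in replicate 1 and 166 in replicate 2, of which 92 and 91 were shared. The median fold enrichment was 4.05 in replicate 1 and 3.88 in replicate 2 on the rest of the chromosome, and 6.14 and 5.82 in the block. They drew attention as a signal in data no comparison used.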

How the results depend on the processing

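Of 60 alternative values of the main results, 21 stayed within a set limit, 38 moved beyond it and 1 reversed. The limit was the spread between replicates (1 SD), except for the shares at gene ends. For regions, genes and ZNF genes at gene ends, the limit was the Wilson interval of the main share. The density of chromosome 19 over the others turned from 2.28 per Mb to 0.565 per protein-coding gene; it was 2.40 at a −log10 q of at least 5, 2.67 at 5-fold or more and 1.19 against chromosomes 16, 17 and 22 alone. The mean share of shared peaks, 61.7%, became 45.3% where 50% reciprocal overlap was required and 38.3% where summits had to lie within 100 bp. It was 59.9% at that q and 49.1% at 5-fold, both within the wide SD of 12.7 between the libraries' shares. The median fold was 4.76 at that q and 5.73 at 5-fold, both set by the filter. The p arm over the q arm was 1.40 with reciprocal overlap, 1.21 with close summits, 1.65 at that q, 1.52 at 5-fold and 1.23 per base of genes. Gene-dense stretches over zinc finger clusters gave 5.06 at that q, 4.89 at 5-fold, 3.57 with ZNF genes at most 100 kb apart, 5.14 with whole windows, 2.84 with at least 40 genes, 4.37 per base of genes, and, chosen after seeing the data, 6.54 and 3.03 without either cluster named above. Regions at gene ends were 30.5% at 5-fold and 38.2% within 3 kb. Genes with a region at an end were 9.15% with reciprocal overlap, 7.87% with close summits, 5.18% at that q, 1.77% at 5-fold and 18.2% within 3 kb, and ZNF genes 2.27% at that q and 1.14% at 5-fold. By summit in place of region, also added later, these were 10.4% and 6.44%.

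With a single library, the values ran from 2.18 to 2.27 for chromosome 19 over the others, 3.88 to 4.05 for the median fold, 1.29 to 1.37 for the arms, 3.25 to 3.48 for gene-dense stretches over clusters, 23.4% to 25.3% for regions at gene ends, 16.3% to 20.1% for genes and 11.7% to 17.8% for ZNF genes. The causes of these changes were not tested. Fewer members remained under each filter: 389 with reciprocal overlap, 329 with close summits, 208 at that q and 59 at 5-fold. Of the named genes and regions, 9 values were lost, 8 of them under close summits; the fold of a region that stays cannot move beyond its spread here, so the others are no sign of stability. No paired analysis was possible because there was 1 group.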
